A study of Mus musculus with 12 samples.

Results

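The culture response common to D2A1 and D2.OR cells was taken from all 12 RNA-seq libraries of the series, 6 labelled 3D and 6 labelled 2D. D2A1 and D2.OR are mouse breast cancer cell lines that came from separate tumors of the same hyperplastic nodule model, and the study sets them against each other as a line that grows (D2A1) and a line that arrests (D2.OR) in Matrigel. The groups were D2A1 in 2D, D2A1 in 3D, D2.OR in 2D and D2.OR in 3D, with 3 libraries each, and the labels give no gene deletion and no drug for any of them. In 3D, cells were plated on top of Matrigel, a basement membrane extract rich in laminin and collagen IV, and the study describes a medium with horse serum, hydrocortisone, cholera toxin and insulin for that assay. Cells were freed from the gel in cold recovery solution, and several wells were pooled into each library. The methods for that assay put the cells of 2D cultures on plastic in the same medium, while those for RNA-seq refer to the general culture section for seeding, so the medium of the sequenced 2D libraries is not settled. Substrate, harvest and possibly medium therefore cannot be told apart. Libraries of 1 replicate number form a batch that went onto a sequencing lane of its own. Each line therefore gave 3 pairs of a 2D and a 3D library of the same batch, and a gene was counted as shared when it passed the test of the average effect and had the same sign in all 6 pairs. By this rule 569 of 16823 genes tested were shared, 158 higher and 411 lower in 3D. The study states in general that findings came from biological repeats, but the labels do not say whether these libraries were separate cultures, so p-values measure the spread between these samples, which may in part be technical.

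Cells on plastic spread on a stiff surface, while cells on a basement membrane gel meet a soft, ligand-rich surface and grow as rounded clusters. Id proteins are short helix-loop-helix proteins that bind E proteins and keep them off DNA, and their genes are classical targets of bone morphogenetic protein (BMP) signaling through SMAD1, SMAD5 and SMAD9. Interferons act through complexes that hold STAT2 and IRF9 to switch on antiviral genes and the genes that load peptides onto MHC class I, and many cells hold a low level of this program with no infection.

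Values are given as CPM, counts scaled to library size with TMM normalization, which allow a gene to be compared across libraries but not with another gene of a different length. Library totals ranged from 47589611 to 73325069 expected counts. Batch 1 stood apart, with 791 genes that differed from it in batch 2 and 920 in batch 3. In the fit over all genes, 190 genes (1.13% of those tested) were higher and 437 (2.6%) were lower in 3D at an adjusted p under 0.05 in edgeR's quasi-likelihood test with cell line and batch as blocks. The shared rises are 0.939% and the shared falls 2.44% of the genes tested. Without regard to the test, 7.75% of genes were higher and 9.65% were lower in all 6 pairs. The median log2 fold change was 1.04 among the shared rises and -0.65 among the shared falls, against 0.01 over all genes, and 81 rises and 135 falls exceeded 2-fold. With scaling to the library total and no TMM factor, the split of calls became 271 higher and 253 lower, and the median of all genes 0.05. The plot of one line's effect against the other's shows the shared genes in the lower left and upper right quadrants, which the rule fixes.

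**Figure D1:**
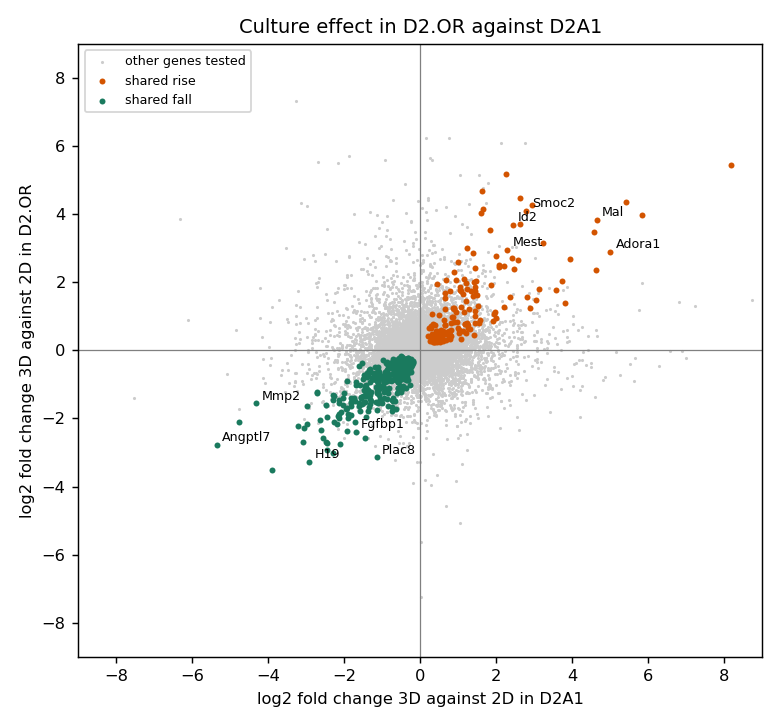
Log2 fold change of 3D against 2D in D2A1 (horizontal axis) and in D2.OR (vertical axis) for the 16823 genes tested, with the 158 shared rises in orange, the 411 shared falls in green and all other genes in gray. Most genes with a large effect in 1 line lie near 0 on the other axis, and labelled genes such as Id2, Adora1, H19 and Mmp2 lie far from 0 on both.

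Across all genes, the changes in the lines were weakly alike. The 2 log2 fold changes had a Pearson's r of 0.17 and a Spearman's rho of 0.21 across genes, which share the batches and are not independent. The rank correlation between single pairs was 0.02 to 0.26 between the lines, 0.25 to 0.69 within D2A1 and 0.32 to 0.56 within D2.OR. The batch 1 pair of D2A1 had 0.26 and 0.25 with the other pairs of its line, no more than the highest value between the lines. Within a line, 167 of the 569 shared genes passed the test in D2A1 and 102 in D2.OR, 33 in both and 333 in neither, so most were called only from both lines together. No shared gene had an interaction of line and culture at an adjusted p under 0.05 in edgeR, against 4 of all 16823 genes tested, so the 0 says little about the shared genes. At an unadjusted p under 0.05 there were 53 shared genes (9.31%) and 17.8% of all genes tested, a lower share that the rule of like sign in both lines largely fixes. The 0 also rested on single libraries: with the shared genes chosen again by the same rule over the pairs that remained, it became 204 of 1464 without replicate 1 of D2A1 in 2D, 39 of 560 without replicate 1 of D2A1 in 3D, 1 of 736 without replicate 1 of D2.OR in 3D and 147 of 1029 without batch 1. The D2A1 pair of batch 1 moved least, with a median of 0.51 for the rises and -0.32 for the falls, against 1.02 and -0.69 in batch 2 and 1.10 and -0.94 in batch 3. It held the smallest difference of the 6 pairs for 272 of the 569 genes. The D2.OR medians were closer together, at 0.71 and -0.54, 0.97 and -0.66, and 0.86 and -0.69.

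The number of shared genes rested on the libraries of batches 2 and 3. When a D2A1 2D library was left out, it was 1464 for batch 1, 158 for batch 2 and 165 for batch 3. For the D2A1 3D libraries it was 560, 106 and 100, for D2.OR 2D 570, 41 and 60, and for D2.OR 3D 736, 96 and 63. Without the whole of batch 1 it was 1029, without batch 2 it was 0 in edgeR (1865 genes had an unadjusted p under 0.05 there) and without batch 3 it was 1. DESeq2's likelihood-ratio test gave 1855 shared genes. Of the 569 genes, 38 passed the test with any 1 of the 12 libraries left out, 10 higher and 28 lower. Id1, Id2, Id3, Atoh8 and Sytl2 were among the 10, and Stat2, Tap2, Ifi203, Mndal, Fgfbp1, Medag, Htra1, Elovl5 and Tgm2 among the 28. Other calls rested on single libraries. Id4 passed in 5 of these 12 fits, B2m and Nqo1 in 4, Mmp2 in 3 and Smad9 in 2. None of the 569 passed without batch 2 or without batch 3.

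**Figure D2:**
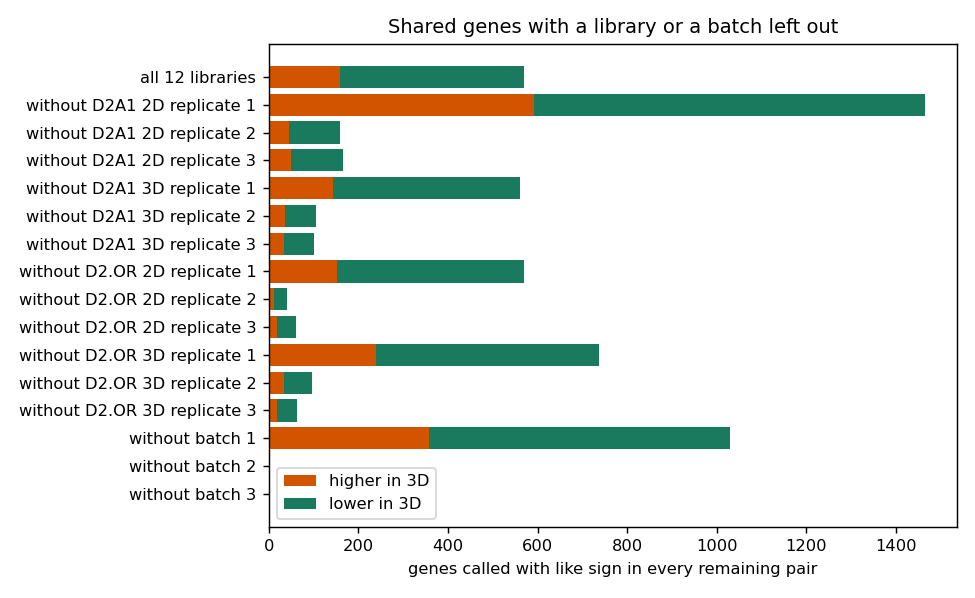
Number of genes called with the same sign in every remaining pair (horizontal axis), higher in 3D in orange and lower in green, for all 12 libraries and with each library or batch left out. The bars run from 0 genes without batch 2 to 1464 without D2A1 2D replicate 1, against 569 with all libraries.

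All 4 Id genes passed the test as rises, against 1.13% of all genes tested, and were higher in 3D in each of the 6 pairs, against 7.75%. The family was picked after its values were seen, so its count is a description. Its median log2 fold change was 1.66. By pair the median was 1.39, 1.83 and 1.67 in the D2A1 pairs and 1.25, 1.89 and 1.90 in the D2.OR pairs. Id1 measured 20.5, 37 and 40.9 CPM in the D2A1 2D libraries of batches 1, 2 and 3 and 49.1, 86.9 and 95.3 in 3D, and 42.8, 40.9 and 55.6 in D2.OR 2D and 63.1, 80.7 and 104 in 3D. Every 3D library was above every 2D library of its line, the pair differences ran from 0.56 to 1.26 on the log2 scale, and the average log2 fold change was 1.02 ± 0.13 (SE), adjusted p = 0.0121.

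Id2 had the largest change of the family. It measured 9.43, 7.3 and 8.86 CPM in D2A1 2D, 38.1, 39.6 and 67 in D2A1 3D, 2.7, 2.34 and 2.07 in D2.OR 2D and 10.2, 36.3 and 56.9 in D2.OR 3D. The lowest 3D value was above the highest 2D value, the average fold was 8.16 (3.03 ± 0.40 (SE), adjusted p = 0.0122), and the D2.OR pair of batch 1 moved least among the D2.OR pairs. Id3 measured 43.1, 21.7 and 31.6 CPM in D2A1 2D, 102, 126 and 137 in D2A1 3D, 227, 204 and 225 in D2.OR 2D and 344, 472 and 568 in D2.OR 3D. The lines differed in level, and within each line the 2D and 3D libraries did not overlap, with a log2 fold change of 1.5 ± 0.22 (SE), adjusted p = 0.0157. Id4 measured 2.77, 2.19 and 1.55 CPM in D2A1 2D, 7.97, 3.26 and 3.16 in D2A1 3D, 13.5, 3.1 and 2.53 in D2.OR 2D and 88, 18.5 and 14.1 in D2.OR 3D. Its D2.OR libraries of batch 1 stood above those of batches 2 and 3 in both cultures, and its log2 fold change was 1.82 ± 0.37 (SE), adjusted p = 0.0329, with 0.99 ± 0.36 in D2A1 and 2.59 ± 0.36 in D2.OR from the model with an interaction.

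Other genes of the BMP pathway were looked at by role, from lists written after the Id values were seen. Among ligands and receptors, 0 of 13 tested passed in edgeR in either direction (2 had an unadjusted p under 0.05, 15.4% against 27.1% of all genes tested, and DESeq2 called 1, 7.69% against 14.7%), with a median of 0.06. The receptor genes Acvr1 and Bmpr1a had log2 fold changes of 0.11 ± 0.10 and -0.17 ± 0.06. Of 17 Smads and inhibitors tested, 1 rose (5.88%, against 1.13% of all genes tested) and 2 fell (11.8%, against 2.6%). Smad9, a receptor-activated SMAD of the BMP branch, rose from low levels. It measured 2.93, 1.45 and 2.39 CPM in D2A1 2D, 7.03, 4.03 and 4.7 in D2A1 3D, 0.462, 0.177 and 0.0598 in D2.OR 2D and 1.54, 1.93 and 1.8 in D2.OR 3D. The groups of a line did not overlap, and the log2 fold change was 2.00 ± 0.43 (SE), adjusted p = 0.0378. Smad3, which carries TGF-beta and activin signals, fell by 0.42 ± 0.08 on the log2 scale (adjusted p = 0.0291). Tgfbr3, the betaglycan co-receptor, had a log2 fold change of -1.08 ± 0.22 (SE), adjusted p = 0.0347. The other BMP-SMAD genes Smad1 and Smad5 were at -0.14 ± 0.06 and -0.10 ± 0.06. The inhibitory genes Smad6, Smad7 and Bambi, known as feedback targets of the pathway, had 0.74 ± 0.22 (SE), adjusted p = 0.0811, 0.41 ± 0.18 (SE), adjusted p = 0.171 and 0.77 ± 0.19 (SE), adjusted p = 0.0542, and did not pass. Atoh8, a helix-loop-helix factor known as a BMP target in other tissues, shared the smallest adjusted p of all genes tested with Htra1 and a few others. It measured 2.21, 2.02 and 2.06 CPM in D2A1 2D, 5.35, 5.54 and 5.35 in D2A1 3D, 4.57, 3.01 and 3.29 in D2.OR 2D and 11.5, 9.75 and 11.7 in D2.OR 3D. All 6 values in 3D were above all 6 in 2D, the pair differences ran from 1.27 to 1.82, and the log2 fold change was 1.49 ± 0.12 (SE), adjusted p = 0.00139. Atoh8 and Htra1 were added after their values were seen.

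**Figure D3:**
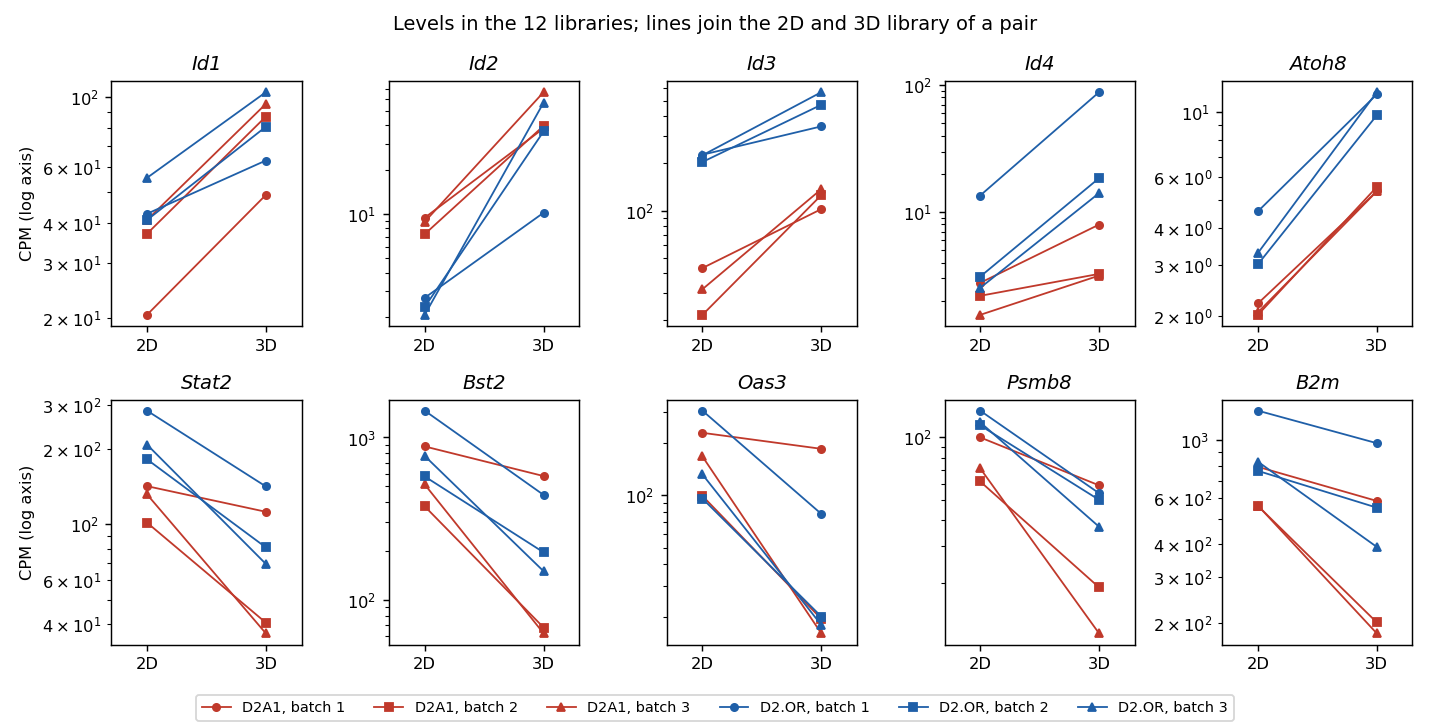
CPM on a log axis in the 12 libraries for 5 genes that rose (Id1 to Id4 and Atoh8) and 5 that fell (Stat2, Bst2, Oas3, Psmb8 and B2m), with a line joining the 2D and 3D library of each line and batch (D2A1 red, D2.OR blue). All lines slope up in the first row and down in the second, and the D2A1 pair of batch 1 has the flattest slope for Stat2, Bst2 and Oas3.

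Interferon-stimulated genes were lower in 3D. Of 27 on the list, 15 fell and 0 rose, against 2.6% and 1.13% of all genes tested, and 24 were lower in all 6 pairs, against 9.65% of all genes. The median log2 fold change was -1.31. By pair it was -0.31, -1.99 and -2.48 in the D2A1 pairs and -1.31, -0.88 and -1.41 in the D2.OR pairs. The number of members called was 1 to 24 with a library left out, 0 without batch 2 or without batch 3, and 22 without batch 1. Over all genes tested, these fits called 30 to 922 lower with a library left out, 0 without batch 2 or without batch 3, and 683 without batch 1. Scaling to the library total gave 7 members and the fit with no replicate block 0, where 253 and 75 of all genes were called lower.

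The signaling factors of the pathway were among the falls. Stat2, which binds IRF9 in the interferon-activated complex, measured 142, 102 and 132 CPM in the D2A1 2D libraries of batches 1, 2 and 3 and 112, 40.6 and 36.8 in 3D, and 284, 182 and 208 in D2.OR 2D and 142, 81 and 69.6 in 3D. The 3D value was lower in every pair, least in the D2A1 pair of batch 1, and the 2D and 3D groups of each line overlapped only for D2A1. The log2 fold change was -1.20 ± 0.17 (SE), adjusted p = 0.0129, and the within-line values were -1.15 ± 0.24 in D2A1 and -1.25 ± 0.24 in D2.OR. Irf9 had -0.95 ± 0.21 (SE), adjusted p = 0.0403 and Irf7, which amplifies type I interferon, had -1.81 ± 0.40 (SE), adjusted p = 0.0428. The RNA sensors Ddx58 (RIG-I) and Ifih1 (MDA5) had -0.91 ± 0.20 and -1.24 ± 0.29 and passed as well.

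Among the effectors, Bst2, which tethers budding virus to the cell surface, measured 881, 377 and 514 CPM in D2A1 2D, 579, 67.7 and 62.3 in D2A1 3D, 1462, 576 and 769.7 in D2.OR 2D and 443, 196 and 150.3 in D2.OR 3D. The D2A1 3D library of batch 1 lay within the 2D range of that line while those of batches 2 and 3 were below it, and the log2 fold change was -1.90 ± 0.30 (SE), adjusted p = 0.0187. Isg15, a ubiquitin-like modifier, had -1.28 ± 0.30 (SE), adjusted p = 0.0471. Of 10 genes tested of the Oas family, whose products make 2-5A and activate RNase L, 6 fell (60.0%, against 2.6% of all genes tested) and 0 rose (median -1.42). Oas3 measured 228, 98.9 and 166 CPM in D2A1 2D, 184, 19.5 and 16.1 in D2A1 3D, 305, 95.5 and 131 in D2.OR 2D and 78, 20.1 and 18 in D2.OR 3D. The D2.OR differences ran from -1.97 to -2.87, the D2A1 pair of batch 1 differed by -0.31, and the log2 fold change was -2.16 ± 0.34 (SE), adjusted p = 0.0184. Oas2 had -2.46 ± 0.54 (SE), adjusted p = 0.0413. Oas1a and Oas1g are close paralogs whose reads cannot be fully separated, so their separate values are uncertain.

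Interferon-induced GTPases, which attack the membranes around intracellular pathogens, had 9 of 18 called lower (50%, against 2.6% of all genes tested) and 0 called higher, with a median of -1.44. Gbp4 had -2.20 ± 0.35 (SE), adjusted p = 0.0186, Gbp9 -1.49 ± 0.25, Igtp -1.42 ± 0.29, Irgm1 -1.34 ± 0.26 and Irgm2 -1.47 ± 0.30. Some Gbp genes are near-identical copies of each other, which makes their separate values uncertain. Of 7 genes of antiviral ADP-ribosylation, 6 fell (85.7%, against 2.6%), among them Parp9, Dtx3l and Zc3hav1, with a median of -0.93. Of 13 genes of the Ifi200 family of DNA sensors, 3 fell (23.1%, against 2.6%) and 0 rose, and Ifi203 and Mndal had -1.5 ± 0.21 and -1.69 ± 0.24. These families were listed after their values were seen.

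Genes of MHC class I presentation were also lower in 3D. Of 29 genes tested, 18 fell (62.1%, against 2.6% of all genes tested) and 0 rose, and 21 were lower in all 6 pairs, against 9.65% of all genes, with a median of -0.86. The interferon and MHC lists share Psmb8, Psmb9 and Tap1. The interferon list also shares Gbp2 and Gbp3 with the GTPase list and Oas1a, Oasl1 and Oasl2 with the Oas list. Tap2, which with Tap1 carries peptides into the endoplasmic reticulum, measured 77.6, 90.9 and 90.3 CPM in D2A1 2D, 59.9, 40.1 and 24.8 in D2A1 3D, 118, 102 and 95.9 in D2.OR 2D and 61.3, 55.3 and 42.2 in D2.OR 3D. All 3D values were below all 2D values, and the log2 fold change was -1.06 ± 0.15 (SE), adjusted p = 0.014. Tap1 had -1.32 ± 0.24 (SE), adjusted p = 0.026. Psmb8 and Psmb9, catalytic subunits of the immunoproteasome, had -1.48 ± 0.25 (SE), adjusted p = 0.0214 and -1.31 ± 0.29 (SE), adjusted p = 0.0409, and for Psmb8 too the 2D and 3D libraries did not overlap. B2m, the invariant light chain, measured 791, 560.4 and 562 CPM in D2A1 2D, 586, 201 and 182 in D2A1 3D, 1298, 763 and 828 in D2.OR 2D and 975, 552 and 390.3 in D2.OR 3D, with a log2 fold change of -0.91 ± 0.18 (SE), adjusted p = 0.0305. In both lines the 3D library of batch 1 lay above the 2D libraries of batches 2 and 3, so the groups overlapped. The heavy chain genes H2-K1 and H2-D1 had -0.86 ± 0.19 and -1.03 ± 0.24 and passed, but MHC class I genes are close paralogs and reads may be split among them. Over the interferon, GTPase, Oas, ADP-ribosylation, Ifi200 and MHC lists together, 51 of 96 genes were shared falls, against 2.44% of all genes tested, and 0 rose. Each gene was counted once. All of these lists but the interferon list, the MHC list included, were written after the values were seen. The pooled count is therefore a description that the choice of lists partly fixes.

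Many interferon-stimulated genes are known to be driven through 1 kind of promoter site. The letters GAAANNGAA, the core of the interferon-stimulated response element, were looked for on both strands from 250 bases before to 50 after the start of each gene, in the RefSeq promoters of GRCm38.p6, of which 1 was taken per gene. The core was chosen after the values were seen. It occurred in 59.1% of 22 promoters of the interferon list, in 16.8% of 304 promoters of shared falls, in 4.95% of 101 promoters of shared rises, in 7.19% of 11148 promoters of genes tested and in 8.57% of all 27025 promoters. Among shared falls on none of the interferon-related lists, it occurred in 30 of 266 (11.3%). These lists are not complete, and known interferon-stimulated genes such as Ifit2, Rnf213 and Helz2 are shared falls on none of them. The 11.3% therefore does not describe genes outside the interferon program. The following stretches show it in falls of different function, with the letters of the core in capitals. Where it reads TTCNNTTTC, it lies on the opposite strand, and 2 overlapping copies give a longer run of capitals.
Stat2 (chr10:128270262-128270300, plus strand): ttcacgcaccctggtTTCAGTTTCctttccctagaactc
Bst2 (chr8:71537573-71537617, minus strand): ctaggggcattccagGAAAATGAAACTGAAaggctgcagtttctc
Oas3 (chr5:120777705-120777749, minus strand): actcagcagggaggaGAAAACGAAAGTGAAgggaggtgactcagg
Gbp3 (chr3:142559985-142560029, plus strand): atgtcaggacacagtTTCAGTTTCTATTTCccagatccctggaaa
Igtp (chr11:58199507-58199545, plus strand): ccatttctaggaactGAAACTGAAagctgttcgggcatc
B2m (chr2:122147533-122147571, plus strand): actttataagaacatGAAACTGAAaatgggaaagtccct
The first base of the core lay 221 bases before the annotated start of Stat2, 130 before that of Bst2, 75 before that of Oas3, 44 before that of Gbp3, 34 before that of Igtp and 139 before that of B2m. Bst2, Oas3 and Gbp3 held 2 overlapping copies. A match of letters is not a bound site.

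Other motifs were counted in the same way. The glucocorticoid receptor site AGAACA was in 15.8% of promoters of rises, 11.8% of falls and 12.6% of genes tested, and the cAMP response element TGACGTCA in 3.96%, 1.97% and 3.19%. For TEAD (GGAATG) the shares were 13.9%, 13.8% and 12.3%, for AP-1 (TGANTCA) 6.93%, 7.89% and 5.46%, for the hypoxia core ACGTG 25.7%, 21.1% and 24.9%, and for the E-box CACGTG, which contains that core, 8.91%, 6.58% and 9.87%. The antioxidant response element TGACNNNGC was in 12.9%, 15.1% and 14.7%, the sterol response element TCACNCCAC in 0.99%, 1.32% and 1.06%, CHR (TTTGAA) in 12.9%, 11.2% and 12.1% and the CCAAT box in 41.6%, 39.5% and 38.8%. The SMAD1 and SMAD5 site GGCGCC, added after the Id values were seen, was in 19.8%, 17.1% and 20.8%. In the 22 promoters of the interferon list, AP-1 and the antioxidant element were in 22.7% each (5 promoters), above their shares of all genes tested. The CCAAT box was in 36.4%, the glucocorticoid receptor site, CHR and the SMAD site in 13.6% each, TEAD in 9.09%, the hypoxia core in 4.55%, and the E-box, cAMP and sterol elements in 0. These shares were not tested.

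The largest single rises included secreted proteins and an adenosine receptor. Prl2c2 and Prl2c3, proliferins of the placental prolactin family, were at 1.51 CPM or lower in every 2D library. Prl2c3 measured 0.303, 1.51 and 1.21 CPM in D2A1 2D, 2.2, 64.2 and 109 in D2A1 3D, 0.202, 0.0393 and 0.159 in D2.OR 2D and 1.86, 1.38 and 6.54 in D2.OR 3D. The groups did not overlap within either line, and the D2A1 3D libraries of batches 2 and 3 stood far above all others. The log2 fold changes were 5.33 ± 0.85 (SE), adjusted p = 0.0186 for Prl2c2 and 5.05 ± 0.79 (SE), adjusted p = 0.0184 for Prl2c3, and since the genes are near-identical copies, their separate counts are uncertain. Adora1, the A1 adenosine receptor, which couples to the inhibitory G protein, measured 0.364, 0.276 and 0.158 CPM in D2A1 2D, 1.8, 17.2 and 13.2 in D2A1 3D, 0.563, 1.14 and 1.12 in D2.OR 2D and 3.7, 13 and 5.85 in D2.OR 3D. All 3D values were above all 2D values, at an average of 13.9 times (3.79 ± 0.57 (SE), adjusted p = 0.0171). Smoc2, a matricellular protein of the SPARC family, measured 0.182, 0.0975 and 0.141 CPM in D2A1 2D, 1.43, 0.463 and 0.662 in D2A1 3D, 0.678, 4.07 and 4.22 in D2.OR 2D and 19.9, 64.1 and 65.9 in D2.OR 3D. It was higher in D2.OR than in D2A1 of the same culture and batch, the groups did not overlap within either line, and it had a log2 fold change of 3.71 ± 0.59 (SE), adjusted p = 0.0187.

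Mal, a raft protein of apical transport, measured 0.0607, 0.0163 and 0 CPM in D2A1 2D, 0.184, 0.556 and 0.985 in D2A1 3D, 2.37, 0.55 and 0.179 in D2.OR 2D and 16.7, 8.16 and 14.6 in D2.OR 3D. D2A1 in 2D held at most 3 counts in a library, which is the floor of 3 counts, so no fold is given for that line, and the average log2 fold change was 4.03 ± 0.69 (SE), adjusted p = 0.0228. Sytl2, a Rab27 effector of secretory granule docking, measured 0.627, 0.553 and 0.721 CPM in D2A1 2D, 2.37, 3.86 and 3.68 in D2A1 3D, 2.21, 6.9 and 5.3 in D2.OR 2D and 6.95, 14.3 and 21.9 in D2.OR 3D. The groups did not overlap within a line, and the log2 fold change was 1.93 ± 0.26 (SE), adjusted p = 0.0125. Among the other large rises, Eomes, a T-box transcription factor, had 1.65 ± 0.29 (SE), adjusted p = 0.0252. Tmem56 had 2.21 ± 0.42 (SE), adjusted p = 0.029, and Ugt1a6b, a glucuronosyltransferase that shares exons with its neighbors and is therefore uncertain, had 1.91 ± 0.38 (SE), adjusted p = 0.0327.

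The imprinted genes Mest and H19 moved in opposite directions. Mest, expressed from the paternal allele, measured 1.66, 0.699 and 0.633 CPM in D2A1 2D, 5.12, 3.24 and 5.23 in D2A1 3D, 0.88, 0.982 and 0.916 in D2.OR 2D and 7.87, 12.1 and 2.9 in D2.OR 3D. Every 3D value exceeded every 2D value, and the log2 fold change was 2.62 ± 0.36 (SE), adjusted p = 0.0129. H19, a noncoding RNA expressed from the maternal allele, measured 8.25, 3.95 and 3.64 CPM in D2A1 2D, 2.67, 0.278 and 0.176 in D2A1 3D, 16.1, 27.5 and 12.9 in D2.OR 2D and 6.88, 1.64 and 0.819 in D2.OR 3D. The lowest values were those of 3D in batches 2 and 3 in both lines, and the log2 fold change was -3.14 ± 0.49 (SE), adjusted p = 0.0184.

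The largest falls included extracellular proteins and enzymes. Angptl7, a secreted angiopoietin-like protein, had the largest fall and measured 86.4, 64.3 and 36.4 CPM in D2A1 2D, 11.7, 0.911 and 0.323 in D2A1 3D, 1.54, 0.0589 and 0.0398 in D2.OR 2D and 0.149, 0.0474 and 0 in D2.OR 3D. It was expressed in D2A1, and D2.OR was under 2 CPM throughout, so the average of -4.88 ± 0.75 (SE), adjusted p = 0.0181 describes mainly D2A1. Mmp2, gelatinase A, measured 4.51, 29.5 and 21.6 CPM in D2A1 2D, 0.553, 1.31 and 0.72 in D2A1 3D, 3.29, 8.45 and 6.57 in D2.OR 2D and 2.45, 2.07 and 0.961 in D2.OR 3D, with a log2 fold change of -2.93 ± 0.66 (SE), adjusted p = 0.043. All 3D values were below all 2D values. The D2.OR pair of batch 1 differed by -0.42. Macc1, a regulator of MET, had -2.57 ± 0.45 (SE), adjusted p = 0.0249, Mme, the membrane protease neprilysin, -2.28 ± 0.47 (SE), adjusted p = 0.035, and Aldh1l1, an enzyme of folate metabolism, -2.06 ± 0.31 (SE), adjusted p = 0.0171. Plac8, expressed mainly in D2.OR, had -2.32 ± 0.46 (SE), adjusted p = 0.0324, and Trp53i11 had -1.95 ± 0.36 (SE), adjusted p = 0.026.

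Medag and Fgfbp1 were among the 5 falls with the largest smallest pair difference, though the size of each fall varied over the pairs. Medag, known from fat cell differentiation, measured 5.72, 18.5 and 7.05 CPM in D2A1 2D, 0.638, 3.6 and 1.32 in D2A1 3D, 10.5, 52.7 and 40.4 in D2.OR 2D and 3.73, 9.25 and 9.39 in D2.OR 3D. The pair differences ran from -1.48 to -3.10, and the log2 fold change was -2.33 ± 0.25 (SE), adjusted p = 0.00441. Fgfbp1, which releases fibroblast growth factors from the matrix, measured 19.3, 2.16 and 3.02 CPM in D2A1 2D, 8.03, 0.68 and 0.573 in D2A1 3D, 45.8, 5.11 and 8.15 in D2.OR 2D and 9.61, 0.838 and 1.58 in D2.OR 3D. Batch 1 was higher in every group, and within each batch 3D was lower in both lines (-2.06 ± 0.20 (SE), adjusted p = 0.0033). Htra1, a secreted serine protease named after its values were seen, measured 427, 434 and 353 CPM in D2A1 2D, 173, 118 and 113 in D2A1 3D, 339, 422 and 334 in D2.OR 2D and 181, 123 and 85.7 in D2.OR 3D. The levels of the lines overlapped in each culture, all 3D values were below all 2D values, and the log2 fold change was -1.58 ± 0.13 (SE), adjusted p = 0.00139, with -1.61 ± 0.19 in D2A1 and -1.55 ± 0.20 in D2.OR.

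**Figure D4:**
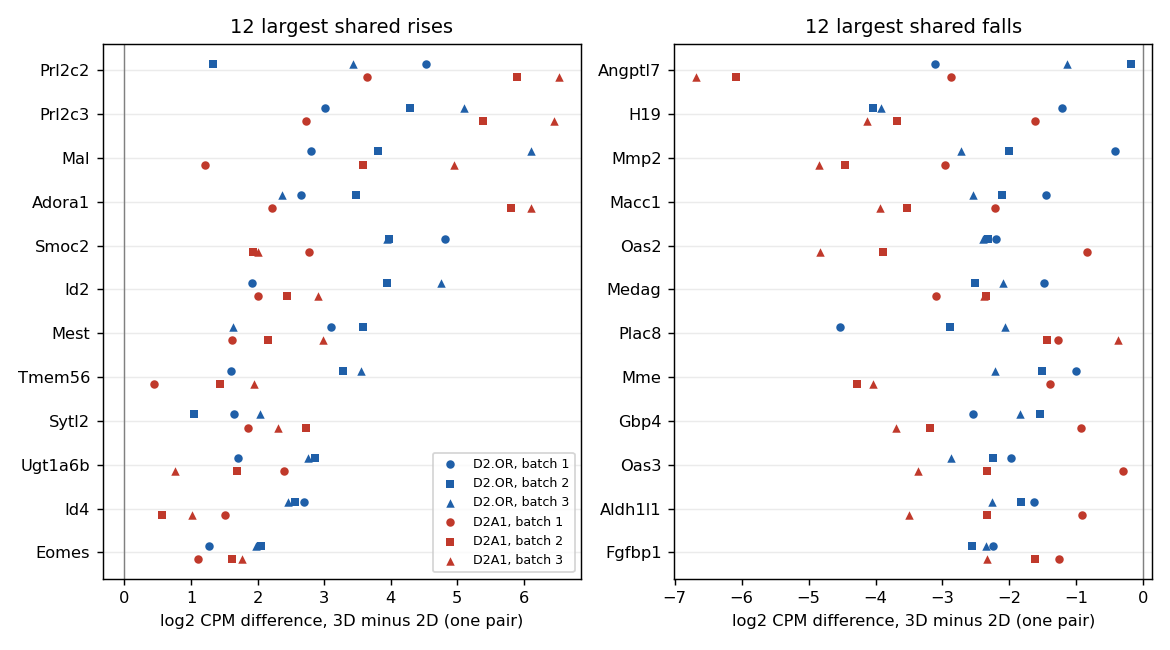
Log2 CPM difference of 3D minus 2D (horizontal axis) in each of the 6 line-by-batch pairs, for the 12 largest shared rises (left) and the 12 largest shared falls (right) with at least 5 CPM in 2D or in 3D. All points lie on 1 side of 0 for each gene, and the D2A1 pair of batch 1 (red circles) is often the one nearest 0.

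Of 26 basement membrane and integrin genes, 5 fell (19.2%, against 2.6% of all genes tested) and 0 rose (median -0.26). These were the laminin chains Lama5 (-0.71 ± 0.15 (SE), adjusted p = 0.0355) and Lamb1 (-0.50 ± 0.11), the perlecan gene Hspg2 (-0.91 ± 0.21, higher in 1 D2.OR pair), Agrn (-0.90 ± 0.19 (SE), adjusted p = 0.035) and Nid2 (-2.03 ± 0.29 (SE), adjusted p = 0.013). Nid2, which links laminin to collagen IV, was expressed in D2.OR at 20.8, 5.93 and 4.78 CPM in 2D and 5.11, 1.58 and 0.882 in 3D, and was at 0.243 CPM or lower in every D2A1 library. Of 25 interstitial matrix genes 0 passed in edgeR (median -0.47), 10 had an unadjusted p under 0.05 (against 27.1% of all genes tested) and DESeq2 called 7 (against 14.7%), with Col3a1 at -2.02 ± 0.48 (SE), adjusted p = 0.0508. Of 23 matrix proteases and inhibitors, 4.35% rose, against 1.13% of all genes tested, and 8.7% fell, against 2.6%. Mmp15 rose (0.77 ± 0.14 (SE), adjusted p = 0.0265) and Mmp2 and Mmp14 fell, Mmp14 by 0.64 ± 0.15 with the opposite sign in 1 D2.OR pair.

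Of 30 lysosome genes, 7 fell (23.3%, against 2.6% of all genes tested) and 0 rose, and 14 were lower in all 6 pairs, against 9.65% of all genes. The median was -0.39, with -0.27, -0.71 and -0.87 in the D2A1 pairs and -0.18, -0.15 and -0.14 in the D2.OR pairs, and the within-line medians were -0.61 in D2A1 and -0.13 in D2.OR, a difference that was not tested. The 7 were the cathepsins Ctsa, Ctsb (-0.61 ± 0.12 (SE), adjusted p = 0.0327) and Ctsd (-0.59 ± 0.11 (SE), adjusted p = 0.0308), the progranulin gene Grn (-0.85 ± 0.16 (SE), adjusted p = 0.0303), Glb1, Man2b1 and Npc2. Ctsb measured 740.2, 1179.9 and 1100.0 CPM in D2A1 2D, 575, 700.5 and 616 in D2A1 3D, 2016, 4014 and 3384 in D2.OR 2D and 1379, 2158 and 2738 in D2.OR 3D. D2.OR was above D2A1 in both cultures, and the change was smaller than the difference between batches within D2.OR. In fatty acid synthesis, 2 of 15 fell (13.3%, against 2.6%), with a median of -0.06. Elovl5, which elongates polyunsaturated fatty acids, measured 203, 240.3 and 252 CPM in D2A1 2D, 172, 149.9 and 140.2 in D2A1 3D, 245, 314 and 280.2 in D2.OR 2D and 143, 140.3 and 156 in D2.OR 3D. The groups did not overlap within a line (-0.76 ± 0.10 (SE), adjusted p = 0.0129), and Acaca, acetyl-CoA carboxylase, had -0.37 ± 0.09 (SE), adjusted p = 0.0469. Of 35 genes of glycolysis and hypoxia, 1 fell (2.86%, close to the 2.6% of all genes tested), with a median of -0.06. It was Hk1, a hexokinase, at -0.43 ± 0.09 (SE), adjusted p = 0.0419.

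Of 25 NRF2 targets and general antioxidant genes, 3 rose (12%, against 1.13% of all genes tested) and 0 fell (median 0.38). Nqo1, a quinone reductase, measured 25.7, 26.3 and 44.9 CPM in D2A1 2D, 81.5, 81.2 and 119.5 in D2A1 3D, 58.8, 21.4 and 26.7 in D2.OR 2D and 74.4, 42.3 and 82.9 in D2.OR 3D, with a log2 fold change of 1.23 ± 0.25 (SE), adjusted p = 0.0327. Gclm, of glutathione synthesis, had 0.70 ± 0.14 (SE), adjusted p = 0.0329, and Prdx1, a peroxiredoxin, 0.47 ± 0.10 (SE), adjusted p = 0.0423. Of 25 NF-kB targets and cytokines, 2 rose (8.0%, against 1.13%) and 0 fell, with a median of 0.66 and within-line medians of 0.75 in D2A1 and 0.08 in D2.OR, a difference that was not tested. Lcn2, the siderophore-binding lipocalin, measured 48.3, 373 and 436 CPM in D2A1 2D, 248, 1271 and 578 in D2A1 3D, 41.2, 158 and 119.5 in D2.OR 2D and 156, 538 and 343 in D2.OR 3D, with 1.59 ± 0.24 (SE), adjusted p = 0.0176. It was higher in 3D in every pair, least in the D2A1 pair of batch 3. Ccl20, a chemokine, had 2.30 ± 0.53 (SE), adjusted p = 0.0467 from levels under 3 CPM in 2D.

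Proliferation genes were mostly higher in 3D within a pair and did not pass the test. Of 41 S phase genes, 22 were higher in all 6 pairs and 0 were lower in all, and of 51 G2/M genes 35 and 0, against 7.75% and 9.65% of all genes tested. None was called in edgeR's test (smallest adjusted p 0.0552 and 0.0541), while 36 and 43 had an unadjusted p under 0.05 as rises (87.8% and 84.3%, against 12.6% of all genes tested) and DESeq2 called 22 and 23 as rises (53.7% and 45.1%, against 5.83%). The medians were 0.60 and 0.56. By pair, the S phase median was 0.07, 1.32 and 1.44 in the D2A1 pairs and 0.48, 0.51 and 0.17 in the D2.OR pairs. The G2/M median was 0.23, 1.11 and 1.53 in the D2A1 pairs and 0.19, 0.41 and 0.06 in the D2.OR pairs. The within-line medians were 0.86 and 0.88 in D2A1 and 0.38 and 0.23 in D2.OR, a difference that was not tested. The estimate was above 0 for 38 S phase genes and 48 G2/M genes in D2.OR, and for 40 and 51 in D2A1. Rrm2, of ribonucleotide reductase, measured 95.7, 66.5 and 49.2 CPM in D2A1 2D, 124, 239 and 273 in D2A1 3D, 31, 82.7 and 108 in D2.OR 2D and 63.7, 151 and 148 in D2.OR 3D, with 1.06 ± 0.31 (SE), adjusted p = 0.0771. Mki67, the Ki-67 gene, measured 190.4, 117 and 108 CPM in D2A1 2D, 233, 356 and 406 in D2A1 3D, 112, 222 and 264 in D2.OR 2D and 190.0, 319 and 308 in D2.OR 3D, with 0.81 ± 0.25 (SE), adjusted p = 0.0884. Both were higher in 3D in every pair, by 0.37 to 2.47 on the log2 scale for Rrm2 and by 0.22 to 1.91 for Mki67, most in the D2A1 pairs of batches 2 and 3. Within D2.OR the 2D and 3D groups overlapped for both. The direction of Mki67 RNA in D2.OR differs from the protein staining in the study. There, D2.OR cells in Matrigel were negative for KI67, and a cell cycle reporter showed nearly all of them arrested. That staining followed a shorter culture than the RNA-seq. Whether more D2.OR cells were dividing in 3D cannot be read from these RNA values. The cause of the difference from the staining was not tested. Anp32e had 0.51 ± 0.13 (SE), adjusted p = 0.0541 and Rpa2 0.81 ± 0.20 (SE), adjusted p = 0.0552. Without D2A1 2D replicate 1, 23 S phase and 12 G2/M genes passed, in a fit that called 3.8% of all genes higher, and without D2.OR 3D replicate 1, 0 and 6, in a fit that called 1.66% higher. Of 53 clustered histone genes, 5 rose (9.43%, against 1.13% of all genes tested) and 0 fell (median 0.71). Their values were low, with Hist1h3b at 0.0607 to 0.236 CPM in 2D and 0.199 to 0.506 in 3D (1.70 ± 0.32 (SE), adjusted p = 0.029).

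**Figure D5:**
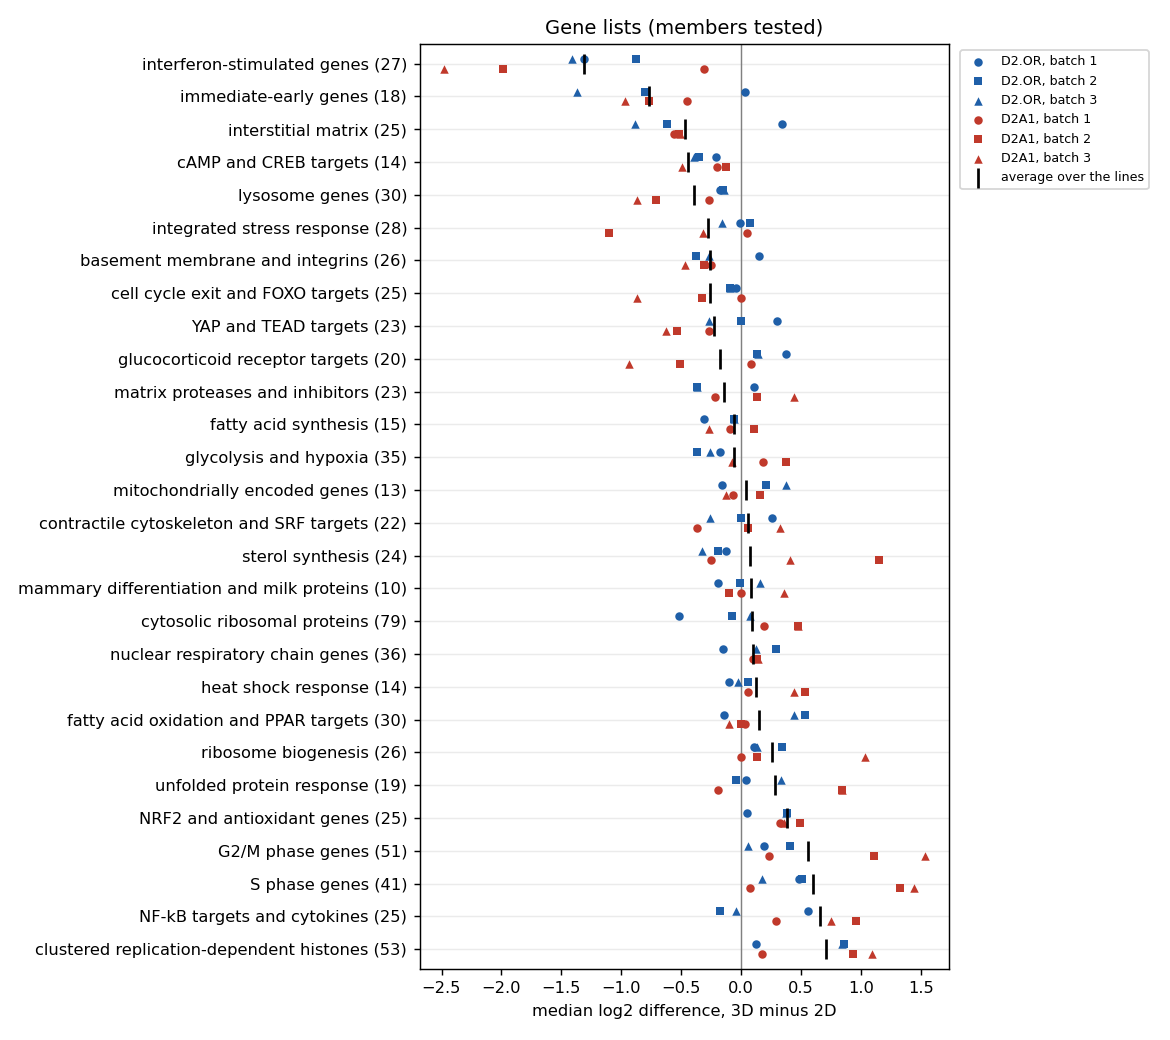
Median log2 difference of 3D minus 2D (horizontal axis) over the tested members of 28 gene lists, in each of the 6 pairs (points) and for the average effect (black bars), with the number of members tested in parentheses. The interferon list lies lowest at -1.31 and is below 0 in every pair, and the S phase, G2/M and histone lists are above 0 in every pair.

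Lists that bear on the medium and the substrate were counted as well. Of 20 glucocorticoid receptor targets, 2 rose (Pdk4 and Lcn2, 10%, against 1.13% of all genes tested) and 2 fell (Tgm2 and Errfi1, 10%, against 2.6%), with a median of -0.18. Pdk4 and Errfi1 each had the opposite sign in 1 pair and are not shared genes. By pair the list median was 0.08, -0.51 and -0.94 in D2A1 and 0.37, 0.13 and 0.14 in D2.OR, a difference between the lines that was not tested. Fkbp5 and Tsc22d3, genes that respond strongly to glucocorticoids in many cells, had mean levels of 595 and 206 CPM in 2D and 575 and 179 in 3D, and log2 fold changes of -0.25 ± 0.28 (SE), adjusted p = 0.589 and -0.61 ± 0.34 (SE), adjusted p = 0.267. Neither moved the same way in all pairs. Of 14 cAMP targets, 1 fell (7.14%, against 2.6%), which was Ppargc1a (-1.23 ± 0.29 (SE), adjusted p = 0.048), with a median of -0.44. Of 18 immediate-early genes, 11.1% fell, against 2.6%. These were Klf6 (-0.57 ± 0.12 (SE), adjusted p = 0.0393) and Btg2 (-1.12 ± 0.26 (SE), adjusted p = 0.0452), with a list median of -0.77, and Egr1, at -1.73 ± 0.41 (SE), adjusted p = 0.05, did not pass. Btg2 was higher in 1 pair and is not a shared gene, and the list median was 0.03 in the D2.OR pair of batch 1. No member passed in edgeR of the YAP and TEAD, contractile and SRF, sterol synthesis, unfolded protein, integrated stress and heat shock lists. The 23 YAP and TEAD targets had a median of -0.23, with 9 at an unadjusted p under 0.05 (39.1%, against 27.1% of all genes tested) and 5 called by DESeq2 (21.7%, against 14.7%). The 22 contractile and SRF targets had 0.06, with 4 and 2. The 24 sterol synthesis genes had 0.07, with 0 and 0. The 19 genes of the unfolded protein response had 0.28, with 2 and 1, the 28 of the integrated stress response -0.28, with 9 and 4, and the 14 of the heat shock response 0.12, with 3 and 2. Of these lists the contractile, sterol, unfolded protein and heat shock ones were below the 27.1% and the 14.7% of all genes, and the integrated stress list was at 32.1% and 14.3%.

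No member passed either of the cell cycle exit, cytosolic ribosomal protein, ribosome biogenesis, nuclear respiratory chain and mammary differentiation lists. The 25 cell cycle exit genes had a median of -0.26, with 14 at an unadjusted p under 0.05 (56.0%, against 27.1% of all genes), 11 of them lower in 3D. DESeq2 called 5 (20.0%, against 14.7% of all genes), all lower in 3D. Of the 25, 7 were lower in all 6 pairs, against 9.65% of all genes. The 79 cytosolic ribosomal proteins had 0.09, with 3 and 0, the 26 ribosome biogenesis genes 0.26, with 9 and 2, the 36 nuclear respiratory chain genes 0.10, with 11 and 4, and the 10 mammary differentiation genes 0.08, with 1 and 0. Ribosome biogenesis was at 34.6% and 7.69% and the respiratory chain at 30.6% and 11.1%, and the ribosomal protein and mammary lists were below both shares. Of 13 mitochondrially encoded genes, 1 rose (7.69%, against 1.13%), mt-Nd3 (0.57 ± 0.10 (SE), adjusted p = 0.0249), with a list median of 0.04. Mitochondrial genes took 1.42% to 2.2% of counts in 2D and 1.6% to 2.04% in 3D.

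Of the called genes, 58 were not of like sign in all pairs, 32 of the rises and 26 of the falls. Some of these were measured almost only in D2.OR. Plin1, which coats lipid droplets, measured 0, 0.0163 and 0 CPM in D2A1 2D, 0.0142, 0.0772 and 0 in D2A1 3D, 0.159, 1.34 and 0.0996 in D2.OR 2D and 5.65, 74.3 and 22.6 in D2.OR 3D. D2A1 held at most 5 counts in a library, so its average of 5.99 ± 0.49 (SE), adjusted p = 0.00139 describes mainly D2.OR. Pdk4, which switches off pyruvate oxidation, measured 0.0405, 0.0163 and 0 CPM in D2A1 2D, 0.128, 0.0154 and 0.0441 in D2A1 3D, 22.9, 7.03 and 4.94 in D2.OR 2D and 81.3, 51.3 and 26.4 in D2.OR 3D. It was near 0 in D2A1, with 2.32 ± 0.24 (SE), adjusted p = 0.00338 on average, and was the 1 call among 30 genes of fatty acid oxidation and PPAR targets (3.33%, against 1.13% of all genes called higher, median 0.15). Cfd, adipsin, was at 0 counts in every D2A1 3D library, and in D2.OR it measured 0.0433, 1.93 and 0.319 CPM in 2D and 1.24, 43.9 and 4.73 in 3D.

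Markers of other cell types were checked in each group. The 5 adipocyte markers summed to 2.28 to 14.2 CPM in D2.OR 2D, 33 to 305 in D2.OR 3D, 8.57 to 15.4 in D2A1 2D and 5.34 to 8.7 in D2A1 3D. Of 4 tested, Plin1 and Cfd rose (50%, against 1.13%, median 2.73), and what part other cells had in this was not tested. Immune markers summed to at most 20.1 CPM in a library, endothelial markers to 1.96 and erythroid markers to 0.75, and none of the 2, 3 and 1 genes tested in them passed in edgeR, had an unadjusted p under 0.05 or was called by DESeq2 (medians 0.63, 0.03 and -0.29). Adgre1, Tyrobp and Itgam were at 3 counts or fewer in D2A1. Epithelial markers summed to 1049 to 1800.4 CPM in D2.OR 2D and 463 to 815 in 3D, and to 157 to 231 and 89 to 177 in D2A1. Of 8 tested, 0 passed in edgeR, 3 had an unadjusted p under 0.05 (37.5%, against 27.1% of all genes tested) and DESeq2 called 2 (against 14.7%, median -0.72), and Cldn7 and Krt19 were at 3 counts or fewer in D2A1, so the defining markers of an epithelial line are partly absent there. Of 9 mesenchymal markers 0 passed in edgeR, 3 had an unadjusted p under 0.05 and DESeq2 called 3 (33.3% each, against the same shares, median 0.18). For 4 basal markers these were 0, 1 and 0 (median 0.67), and for 6 fibroblast markers 0, 2 and 1 (median -0.77), lists too short for a share to be read.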

How the data were processed

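RNA-seq was run on 12 libraries, 3 of each cell line in each culture. The authors trimmed reads with Trimmomatic 0.32, checked them with FastQC 0.11.4, aligned them with STAR 2.5.3 and counted them with RSEM 1.3.0, per the labels' processing notes. The deposited expected counts are RSEM estimates per gene and library, 10.7% to 11.8% of them not whole, and were rounded. The authors' TPM values, which RSEM scales for length and depth, served for an alternative, and the deposited FPKM values were not used. Whether counting used strand is not given in the sources used here, and close paralogs and overlapping genes are uncertain.

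Genes were filtered with filterByExpr, which kept 16823 of 52550, normalized with TMM and tested with edgeR 4.0.16's quasi-likelihood test on R 4.3.3. The model held cell line, batch and culture, and p-values were adjusted by Benjamini-Hochberg over all genes tested, with a threshold of 0.05. The sign in each pair came from log2 CPM with a prior count of 2, and differences under 1e-06 were taken as 0. Within-line values and the test of their difference came from a model with an interaction. The replicate number marks the batch in the labels, so it pairs the libraries. Deviations of same-numbered libraries correlated at 0.08 to 0.51 (median 0.27 over 18 pairs). Total counts were 47589611 to 73325069 a library, and intervals are standard errors of the fit.

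The members and gene lists were chosen with earlier results of these data known. Named genes were those shared with at least 5 CPM on average in 2D or in 3D that had the 12 largest rises or falls, those with the 5 largest smallest-pair differences in each direction, and the 3 members of each list with the smallest p. Other genes named, the Id, BMP, Smad, MHC, GTPase, Oas, ADP-ribosylation and Ifi200 lists, and 2 of the promoter motifs, were added after the values were seen. Alternatives were other normalization, filters, tests (DESeq2 1.42.0, limma 3.58.1 on TPM), block structures and each library or batch left out. Values of 1 item are not reported here.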

Additional observations from a re-analysis of the deposited data

Results flagged for a closer look

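List medians over the 6 pairs were checked for a pair that stands apart, together with the named genes, 140 sets in all, and chance alone flags about 1 set in 20. Of these, 5 were flagged for 1 pair far from the others by Dixon's criterion. The basement membrane and integrin list had a median of 0.15 in the D2.OR pair of batch 1. The interstitial matrix list had 0.34 in that pair, and the fibroblast markers had 1.0. The integrated stress response list had -1.1 in the D2A1 pair of batch 2, and the ribosome biogenesis list had 1.03 in the D2A1 pair of batch 3. For 2 lists all pairs of a line lay on the opposite side of 0 from those of the other line. The median of the epithelial markers differed by -1.85 between D2.OR and D2A1, and that of the adipocyte markers by 4.21. Neither difference was tested.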

How the results depend on the processing

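With all 12 libraries, 627 genes passed and 569 of them were of like sign in all pairs. DESeq2's likelihood-ratio test gave 2474 and 1855, limma on log2(TPM + 1) 350 and 344, and the average of the within-line effects with the replicate block 1289 and 1028. A block for each line-by-batch pair gave 345 and 324, and the fit with no replicate block 124 and 116, of which 116 were among the 569. Leaving out 1 library or batch gave 0 to 1579 genes passing and 0 to 1464 of like sign. The same leave-outs gave 0 to 204 genes of like sign, chosen again each time, whose effect differed between the lines, against 0 with all libraries. Without batch 2 or without batch 3, no gene of the 569 passed in edgeR, though 568 of them kept their direction in each case, which the choice of genes partly fixes. The interferon list had 15 of 27 members passing, 7 with scaling to the library total and 0 with no replicate block. Of all 16823 genes tested, these 3 fits called 437, 253 and 75 lower. Among 104 genes named with values, no alternative reversed a direction, 880 of the values under an alternative no longer passed and 41 passed where the reported value did not. Of the list medians, 889 moved by less than the spread between pairs and 9 by more. The cause of these changes was not tested. The biological coefficient of variation was 24.4%, and low genes such as the histones have few counts.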
